A study of Gallus gallus with 2 samples.

Results

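The B lineage marker and factor genes examined here are CD79B, PAX5, EBF1, BCL6, IRF4, IRF8, PRDM1 and IKZF3. They were chosen by name, and a gene counted as present if a probe for biological RNA carried its symbol, its synonym or its RefSeq accession in the deposited scanner files. Of the 8 genes, 7 were found with 1 probe each, among 8814 named genes in all, and PRDM1, which drives plasma cell differentiation, was not analysed here because no probe was named as it. The study compared intestinal intraepithelial lymphocytes, lymphocytes embedded in the gut epithelium, of Broiler chickens at day 14. The DFM group was given direct fed microbials (live bacteria added to feed), and the control group was not. Each of 2 arrays on 1 slide held both RNAs: DFM was in Cy5 on replicate 1 and in Cy3 on replicate 2. Replicate 2 is labelled as biological and also as a dye exchange of replicate 1, and the number of birds behind an RNA is not given. The p-values thus rest on differences between 2 arrays only, and these may be technical. In limma each SE, interval and p-value draws mostly on the spread between arrays pooled over all tested probes (1 residual and 7.52 prior degrees of freedom). They do not measure the spread of a single gene.

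B cells carry an antibody as their antigen receptor, and CD79B is a signalling chain of that receptor. EBF1 and PAX5 are transcription factors that set up and keep B cell identity. BCL6 is a repressor that maintains germinal centre B cells, while IRF4 promotes plasma cell differentiation, IRF8 acts in early B cells and in myeloid cells, and IKZF3 (Aiolos) is an Ikaros family zinc finger factor of maturing lymphocytes. Intraepithelial lymphocytes are mostly T cells, and in mammals BCL6, IRF4 and IKZF3 are also expressed in T cells. In the chicken, B cells mature in the bursa of Fabricius, a gut-associated organ of birds.

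The 7 probes are 60 bases long and their positions are those the files give, on the galGal2 build of the grid. The CD79B probe (A_87_P011902) lies at chr27:147629-147688 and the PAX5 probe (A_87_P038223) at chr2:147406732-147406791. The EBF1 probe (A_87_P037501), which the files call EBF, lies at chr13:9908364-9908423. The BCL6 probe (A_87_P037019), whose gene name in the files is RCJMB04_3d20, was matched by its accession and lies at chr9:14182760-14182819. The IRF4 probe (A_87_P037691) lies at chr2:66233848-66233907 and the IRF8 probe (A_87_P009462) at chr11:17988615-17988674. The IKZF3 probe (A_87_P037529), which the files call AIOLOS, lies at chrUn:131838211-131838270. Each is described in the files by an mRNA record, and where in the transcript it lies is not given in the sources used here. CD79B rests on its accession only: the files describe that record as similar to a sodium channel alpha subunit, RefSeq now lists it as CD79B, and in its GRCg7b assembly the next gene is the sodium channel gene SCN4A.

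Signals of CD79B, IRF4, IRF8, BCL6 and IKZF3 were above background in both groups, and their ratios of DFM over control, relative to the average probe, did not pass the test, whereas EBF1 and PAX5 were at or near the level of the negative control spots. Of the 7 genes, 5 were well above background by the scanner software's flag in all 4 channels (2 groups on 2 arrays), against 37.6% of the 42034 probes. None of the 5 passed the test of DFM over control at an adjusted p under 0.05 in limma, where 22.6% of all 18242 tested probes did (12.1% higher and 10.5% lower with DFM). At an unadjusted p under 0.05 the count was also 0 of 5, against 37% of the tested probes.

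The B cell identity factors came first in the check of the label. EBF1 had a signal over local background of 4.72 with DFM and 20.6 in control on replicate 1, and of 14.1 and 0.136 on replicate 2, in scanner units. The 153 negative control spots, which match no transcript, had medians of 3.78 and 18.3 in the same channels of replicate 1 and of 17.3 and 4.28 in those of replicate 2. EBF1 thus lay below the highest negative control spot in each of the 4 channels, and it was not well above background in any of them. PAX5 measured 18.1 with DFM and 26.0 in control on replicate 1, and 25.9 and 14.7 on replicate 2. The highest negative control spots of those channels were at 14.9, 26.4, 24.7 and 12.7, so PAX5 exceeded them in 3 of 4 channels, by little. It was flagged well above background only in the Cy5 channel of replicate 1, which held DFM. That channel had the most flagged probes, 21122 against 16889 in the control channel of that array. Normalized log2 levels of PAX5 were 6.13 and 6.13 with DFM and 6.12 and 6.08 in control. Neither PAX5 nor EBF1 was tested or given a fold change.

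CD79B, the receptor chain, was clearly above background. Its signals over local background were 560 with DFM and 339 in control on replicate 1, and 310 with DFM and 534 in control on replicate 2. The higher value was in the Cy5 channel on both arrays, whichever group it held. After loess normalization, which removes the average dye difference at each brightness, its log2 levels were 8.81 and 8.95 with DFM and 8.91 and 8.83 in control, so the groups overlapped. On replicates 1 and 2 the log2 ratio of DFM over control was -0.11 and 0.13, with a mean of 0.01 (SE 0.13, n = 2 arrays, adjusted p = 0.965 in limma). The 95% confidence interval ran from 1.22-fold lower to 1.24-fold higher.

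**Figure D1:**
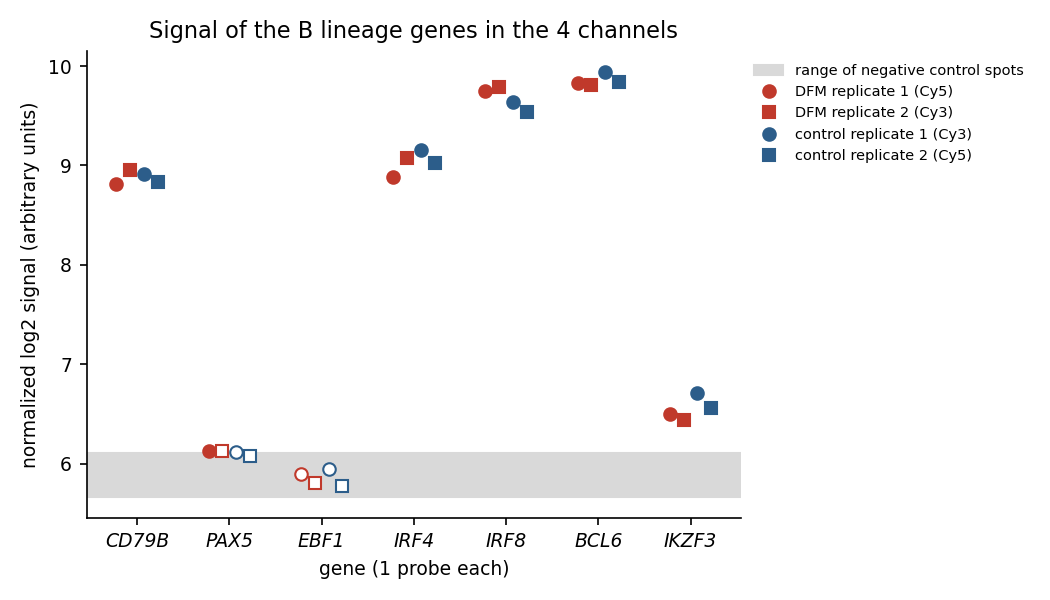
Normalized log2 signal (vertical axis, arbitrary units, background offset included) of the 7 genes with a probe, in the DFM (red) and control (blue) channels of replicate 1 (circles) and replicate 2 (squares). Filled symbols were well above background, and the grey band spans the 153 negative control spots: EBF1 lies inside it, PAX5 at its upper edge and the other 5 genes above it, and levels of different probes cannot be compared with each other.

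Both interferon regulatory factors were well above background, and neither passed the test. IRF8 measured 1167 with DFM and 574 in control on replicate 1, and 572 and 929 on replicate 2, in scanner units over local background. Its normalized log2 levels were 9.75 and 9.79 with DFM and 9.64 and 9.54 in control. Both DFM levels were above both control levels, as was the case in either direction for 67.9% of the tested probes. IRF8 thus gave log2 ratios of 0.11 and 0.25, whose mean was 0.18 (SE 0.13, n = 2 arrays, adjusted p = 0.335 in limma), with an interval from 1.08-fold lower to 1.38-fold higher. A mean further from 0 was seen for 58.8% of the tested probes.

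IRF4 differed more between the arrays than between the groups. Its signals over local background were 596 with DFM and 408 in control on replicate 1, and 343 and 624 on replicate 2. The normalized log2 levels were 8.88 and 9.08 with DFM and 9.16 and 9.02 in control, and the groups overlapped. The log2 ratios were -0.28 and 0.07, with a mean of -0.11 (SE 0.14, n = 2 arrays, adjusted p = 0.603 in limma), with an interval from 1.34-fold lower to 1.15-fold higher. The gap of 0.34 between the arrays was exceeded by 23.5% of the tested probes, whose median gap was 0.19. With the dye exchange undone, IRF4 had a mean log2 Cy5 over Cy3 of -0.17 after loess, which is larger than its difference between groups.

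The repressor gene BCL6 gave near equal levels in the groups. It measured 1242 with DFM and 709 in control on replicate 1, and 575 and 1156 on replicate 2, in scanner units over local background. Normalized log2 levels were 9.83 and 9.81 with DFM and 9.94 and 9.84 in control, so both DFM levels were below both control levels, the closer pair by little. Such a separation, in either direction, was seen for 67.9% of the tested probes. The log2 ratios of BCL6 were -0.11 and -0.03, with a mean of -0.07 (SE 0.12, n = 2 arrays, adjusted p = 0.719 in limma), with an interval from 1.28-fold lower to 1.16-fold higher. A mean further from 0 was seen for 83.3% of the tested probes.

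IKZF3 gave a dim signal, and the size of its ratio depended on the processing. Its signals over local background were 47.5 with DFM and 52.6 in control on replicate 1, and 35.6 and 49.6 on replicate 2. Normalized log2 levels were 6.50 and 6.44 with DFM and 6.71 and 6.56 in control, and both DFM levels were below both control levels. Groups were likewise apart, in either direction, for 67.9% of the tested probes. The log2 ratios of IKZF3 were -0.22 and -0.12, with a mean of -0.17 (SE 0.13, n = 2 arrays, adjusted p = 0.365 in limma), with an interval from 1.37-fold lower to 1.09-fold higher. An offset of 50 is added to every signal before the logarithm and draws ratios of dim spots towards 0. With the offset at 0 the mean was -0.38 (adjusted p = 0.183). With the scanner software's own ratio the log2 values were -0.66 and -0.79 (mean -0.72, or 1.65-fold, 95% confidence interval -1.23 to -0.21, unadjusted p = 0.0157, adjusted p = 0.0771 in limma). The software's p within each array was 0.0126 and 0.00911 for IKZF3. Such a p under 0.05 on both arrays, in the same direction, was found for 29.7% of the tested probes, with 15.5% lower with DFM. IKZF3 did not pass the adjusted test under any setting run other than spike-in scaling.

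**Figure D2:**
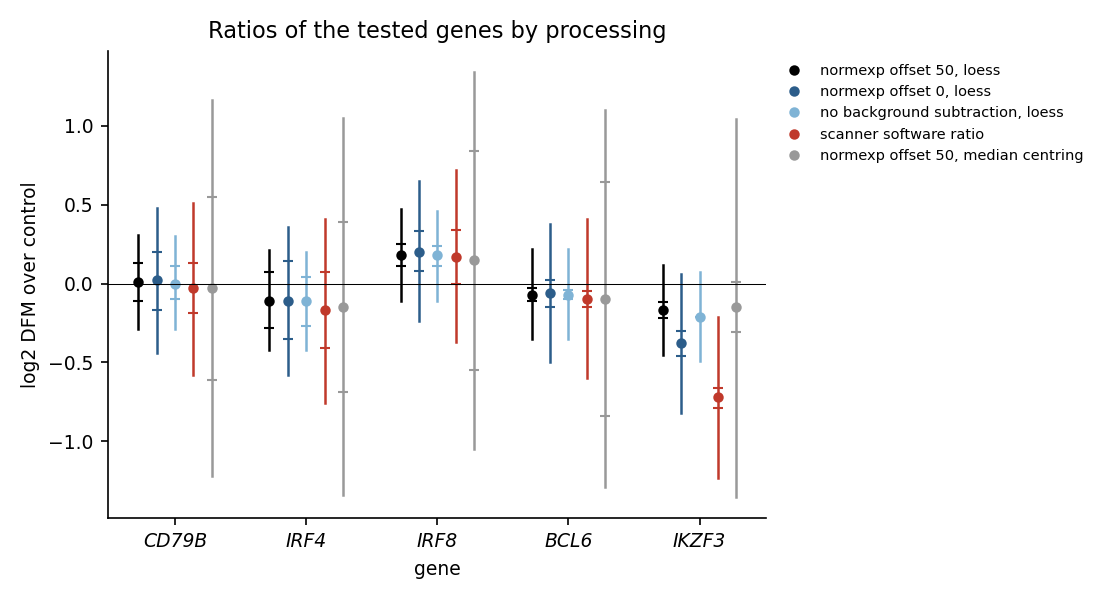
Log2 ratio of DFM over control (vertical axis) of the 5 tested genes under 5 ways of processing the same arrays. Points are means over 2 arrays, short ticks the single arrays and vertical lines limma's 95% confidence intervals: only the interval of IKZF3 with the scanner software's ratio, from -1.23 to -0.21, does not reach 0.

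In the reported fit the means of the 5 tested genes ran from -0.17 for IKZF3 to 0.18 for IRF8. The lower end depended on the processing: IKZF3 had a mean of -0.38 at offset 0 and -0.72 with the scanner software's ratio. In the reported fit the median log2 ratio of the 5 genes was -0.07, against 0.00 over all tested probes and -0.08 over the 6115 tested genes. Of the 5 means, 2 were above 0 and 3 below. The arrays gave the same sign for 3 of the 5 (IRF8, BCL6 and IKZF3) and opposite signs for CD79B and IRF4, while 76% of all tested probes had the same sign. All 5 had a negative mean log2 Cy5 over Cy3 after loess, from -0.04 for BCL6 to -0.17 for IRF4, and the dye exchange cancels such a term in the mean of the arrays. The ratios are relative to the average probe, which loess sets to 0. Set to the spike-in RNAs instead, all tested probes shift up by 2.12 on the log2 scale and 18223 of 18242 are called higher, all 5 genes among them. That shift is the median over 10 spike-in probes and is the same for every tested probe, so the count follows from it. No intended ratios of the spike-in RNAs were entered, and whether both RNAs received equal amounts was not tested.

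**Figure D3:**
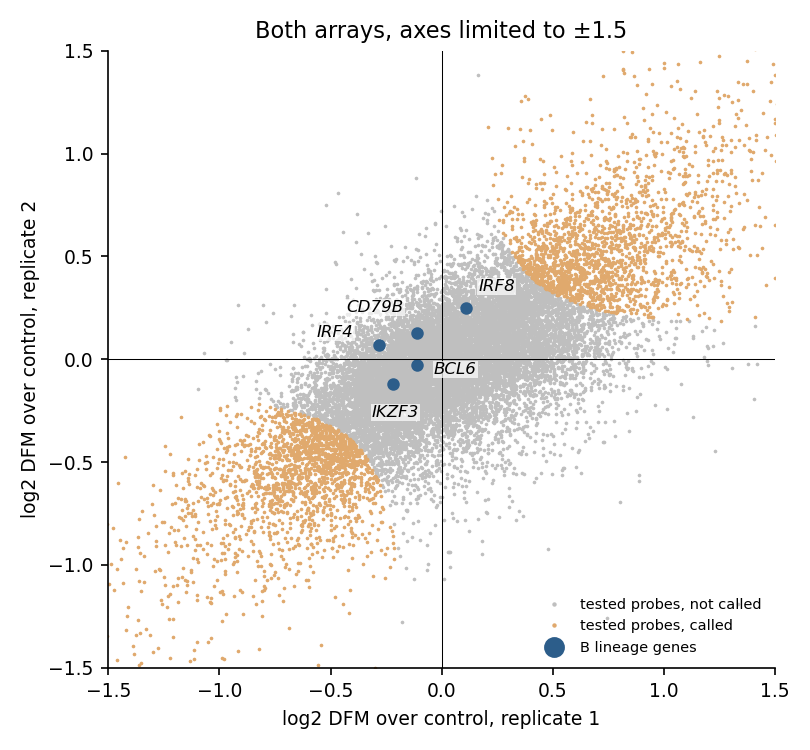
Log2 ratio of DFM over control on replicate 1 (horizontal axis) and replicate 2 (vertical axis) for the tested probes, with the 5 tested B lineage genes in blue and both axes limited to ±1.5, so that more extreme probes are not shown. The 5 genes lie in the grey centre of probes that did not pass limma's test, with IRF4 and CD79B in the quadrant where the arrays disagree in sign.

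For IRF8, the member with the largest mean ratio, the named genes with the most alike pair of array ratios were C5orf51 (0.10 and 0.26), NUGGC (0.10 and 0.23) and PABPC4 (0.12 and 0.23). Their distances from IRF8 in the plane of the 2 ratios were 0.014, 0.019 and 0.021. With 2 arrays and 6115 genes, such likeness is common and is given as a description.

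The paralogs of these factors also gave no call. Of 29 listed, 17 had a probe, 10 were tested, and 0 passed at an adjusted p under 0.05 in limma's fit over genes, in which 27.7% of genes passed; their median log2 ratio was -0.02. The interferon regulatory factor genes measured -0.14 and 0.08 on the arrays for IRF1, 0.17 and -0.05 for IRF2 and 0.04 and 0.06 for IRF7. IRF10, whose accession RefSeq now lists as IRF9, measured 0.50 and 0.02 (adjusted p = 0.196). Among the Ikaros family, IKZF1 measured -0.04 and -0.16 and IKZF2 -0.14 and -0.09. PAX6 measured 0.10 and 0.05 and PRDM15 -0.07 and 0.05. Both PRDM2, at -0.31 and -0.39 (adjusted p = 0.0616 in limma), and PRDM4, at -0.32 and -0.28 (adjusted p = 0.104), were lower on both arrays without a call. The second probe of PRDM4 measured -0.42 and -0.37 (adjusted p = 0.0525 in limma's fit over all probes). IRF5, EBF2, EBF3, PAX2, PAX3 and PRDM10 did not clear background in any of the 4 channels, and PAX7 was in 2 of 4 and was not tested.

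Genes of the B cell receptor complex, its coreceptors and its signalling enzymes were read beside the counts over all genes. Of 20 listed besides CD79B, 12 had a probe and 11 were tested, of which 1 was higher, 3 lower and 7 not called (median -0.25), against 10.2% higher and 17.5% lower over all genes. BTK, a kinase that activates phospholipase C in B cells, had log2 ratios of -0.91 and -0.64 (mean -0.77, adjusted p = 0.00105 in limma). LYN, a Src family kinase that phosphorylates the receptor, measured -0.94 and -0.46 (mean -0.70, adjusted p = 0.00338 in limma). In the fit over all probes the adjusted p of LYN was 0.0124. With the scanner software's ratio it was 0.0797 in that fit, and LYN was not called. INPP5D, the inositol phosphatase SHIP1 that restrains signalling, measured 0.65 and 1.15 (mean 0.90, adjusted p = 0.000634), while its second probe was not well above background. The size of its change depended on the processing, with a mean of 1.66 at offset 0 and 2.07 with the scanner software's ratio. BLNK is the adaptor that joins the receptor to these enzymes. RefSeq now lists the gene of the probe named BLNK as SH2D6, so the identity of this probe is uncertain. It measured -0.43 and -0.37 (mean -0.40, adjusted p = 0.0351 in limma). In the fit over all probes its adjusted p was 0.05 after rounding. Its call was lost in that fit at offset 0 (0.0769), without background subtraction (0.054) and with the software's ratio (0.0918, all adjusted p). BLNK was singled out after its values were seen, as the called gene among the B cell markers. BLK measured -0.32 (adjusted p = 0.0832), and SYK was well above background in 2 of 4 channels and was not tested. BTK, LYN and INPP5D are also expressed in other blood cells in mammals.

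Among antibody, plasma cell and B cell survival genes, 10 of 18 had a probe and 7 were tested, of which 2 were higher, 1 lower and 4 not called (median -0.08). Over all tested genes, 10.2% were higher and 17.5% lower. PIGR, by which epithelial cells export antibody, had a mean log2 ratio of 1.18 (adjusted p = 4.09e-05 in limma) and CD40LG, a T cell ligand for B cells, of 0.59 (adjusted p = 0.00533), which was 1.06 at offset 0 and 1.26 with the scanner software's ratio. XBP1, the secretory factor of plasma cells and other secreting cells, had a mean of -0.40 (-0.57 and -0.23, adjusted p = 0.0448), and was not called in the fit over all probes (adjusted p = 0.0666). POU2AF1, a B cell coactivator, measured 0.00 and -0.16 and the survival factor gene TNFSF13B -0.22 and -0.27, and neither was called. JCHAIN, which joins antibody units in plasma cells, was well above background in the Cy5 channel of each array only, CD40 in 1 of 4 channels and CXCR5 in none.

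Of 22 other transcription factor and recombination genes of B cell development, 17 had a probe and 12 were tested, of which 1 was higher, 2 lower and 9 not called (median -0.10). Over all tested genes, 10.2% were higher and 17.5% lower (median -0.08). BCL11A, a zinc finger factor of lymphoid development, measured 1.64 and 0.68 (mean 1.16, adjusted p = 0.000519 in limma). In the fit over all probes the adjusted p of BCL11A was 0.00582. With the scanner software's ratio it was 0.0644 in that fit, and BCL11A was not called. KLF2, a factor of lymphocyte quiescence and traffic, measured -1.01 and -0.98 (2-fold lower in the mean, adjusted p = 0.000114), and FOXO1, which acts in early B cells and in resting lymphocytes, -0.36 and -0.38 (mean -0.37, adjusted p = 0.049). In the fit over all probes FOXO1 was not called (adjusted p = 0.0639). RAG1, MYB, BACH2 and LEF1 did not clear background in any of the 4 channels, and POU2F1 was in 1 of 4. Of 23 corepressors and partners of BCL6, PRDM1 and IKZF3, 13 had a probe and 10 were tested, with 0 higher, 2 lower and 8 not called (median -0.16), against the same shares over all genes. The corepressor gene NCOR1, whose protein binds BCL6, measured -0.54 and -0.32 (mean -0.43, adjusted p = 0.0294 in limma). In the fit over all probes the adjusted p of NCOR1 was 0.0461. Its call was lost in that fit at offset 0 (0.139), without background subtraction (0.0518) and with the software's ratio (0.166, all adjusted p). The brighter probe of CTBP1 had a mean of -0.70 (adjusted p = 0.00166 in limma). In the fit over all probes its adjusted p was 0.00635, and 0.0758 with the software's ratio. The second probe of CTBP1 measured -0.29 and 0.08 and was not called. HDAC2 did not clear background in any channel, MTA1 was in 1 and BCOR in 2 of 4, and none of these was tested.

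**Figure D4:**
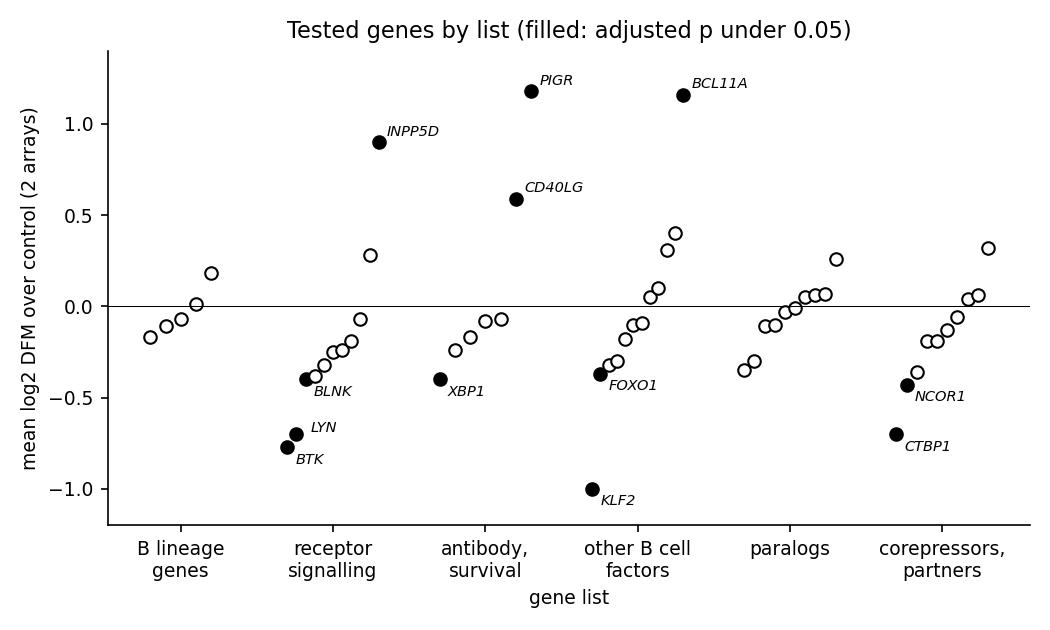
Mean log2 ratio of DFM over control over 2 arrays (vertical axis) of each tested gene, by list, with genes at an adjusted p under 0.05 filled and named. The 5 B lineage genes and the 10 paralogs hold no filled point, and relative to the spike-in RNAs all points shown would move up by 2.12.

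Markers of the cell types that the preparation could hold were read beside these values. For the counts below, 10.2% of all tested genes were higher and 17.5% lower (median -0.08). Of 10 B cell markers, 5 had a probe and 3 were tested: CD79B, POU2AF1 and BLNK. Of these, BLNK, whose probe is of uncertain identity, was lower. The summed normalized signal of the 5 was 842 and 908 with DFM and 933 and 932 in control, with the largest part from CD79B. The defining markers EBF1 and PAX5 were at or near background. Each sum here includes the background offset of every probe, detected or not, and negative control spots had median log2 levels of 5.88 to 5.89. This floor weighs most in small sums, such as those of the B cell markers and of the pancreas markers in control. Of 12 T cell markers, 10 had a probe and 9 were tested, with 1 higher (CD5) and 2 lower (CD3D and CD3E, median of the list -0.12). The summed signal of the 10 was 37708 and 32203 with DFM and 50493 and 49319 in control. This sum came mostly from CD3D, whose log2 ratios were -0.44 and -0.66 (adjusted p = 0.00815 in limma). Before normalization, its signal over local background was 55571 with DFM and 29500 in control on replicate 1, and 17627 and 63083 on replicate 2. The higher value was in the Cy5 channel on both arrays. The next, CD247, had 2373 with DFM and 1269 in control on replicate 1, so the sum is not a total over T cell markers of equal weight. Macrophage and granulocyte markers had 2 higher and 0 lower of 8 tested (median 0.11). Their sums, mostly from CTSS, which was not called, were 19573 and 20027 with DFM and 22152 and 22206 in control. Enterocyte markers had 1 higher and 4 lower of 10 (median -0.20), with sums of 472077 and 407830 with DFM and 397414 and 479048 in control. The probes of ANPEP, the enterocyte marker of highest signal, disagreed. The one used measured 0.96 and -0.22 and was not called. The other, left out here, measured -1.95 and -1.45 (adjusted p = 0.000156 in limma's fit over all probes). Red cell markers had 1 higher and 2 lower of 4 (median -0.31). Their sums, mostly from HBBA, were 47007 and 43327 with DFM and 67823 and 77175 in control. Exocrine pancreas markers had sums over 12 probes of 22472 and 21846 with DFM, mostly from CPA1, and 1402 and 1409 in control. Of their 10 tested genes, 5 were well above background in all 4 channels, with mean log2 ratios from 2.31 (AMY2A) to 5.52 (CPA1). Of the rest, 3 missed background in 1 control channel and 2, PNLIPRP1 and CEL, cleared it with DFM only, so these entered the test through the group in which they were high. In bulk RNA, fewer cells of a type and less RNA per cell cannot be told apart, and the part of these markers in the ratios of the B lineage genes was not tested.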

How the data were processed

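Total RNA of both groups was hybridised on 2 two-colour Agilent chicken arrays. The deposited intensity values are, per the file headers, mean spot and median local background brightness in both dyes. Per the file headers, each file further gives a log10 ratio of Cy5 over Cy3 and its p-value within that array, as the software computed them. The deposited flags (an other unit) mark control, outlier, saturated and well above background spots. The log2 values in the authors' deposited value table match the software's ratio turned to DFM over control where that ratio is other than 0. There r was 1 over 28763 probes on replicate 1 and 28970 on replicate 2. Over all 42034 probes r was 0.9813 and 0.9849, and the medians of the deposited values were -0.274 and 0.204. Agilent Feature Extraction is given as 10.7.3.1 in the submitters' processing notes and as 9.5.3.1 in the file headers.

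Mean signals were corrected by normexp (offset 50) and normalized by loess within each array, giving control spots a weight of 0 (R 4.3.3, limma 3.58.1). Of 43451 spots, 1417 controls and 5 outlier probes were left out; 0 were saturated. A probe was tested (18242 in all) if at least 1 group had it well above background on both arrays, with the second array's sign turned, by lmFit and eBayes against 0 (1 residual and 7.52 prior degrees of freedom), two-sided, with Benjamini-Hochberg adjustment. Normalized levels are after Aquantile. List genes were tested in a fit of their own, by their brightest tested probe. Their adjusted p under other settings is that of the fit over all probes. Names came from RefSeq (GRCg7b, names only), and 10303 of 42034 probes were named. A listed gene that the array names by what RefSeq holds as a synonym kept that name (BLNK and IRF10). PNLIP, held there as a synonym of PNLIPRP1, was counted together with PNLIPRP1. Some genes of the lists are not reported here, and the list counts leave them out. The members and lists were chosen with earlier results of these data known. Named besides the members were, per list, the called genes with the 4 largest changes and undetected ones. BLK, POU2AF1, TNFSF13B and the tested paralogs were named outside this rule, after their values were seen. The number of arrays limits the precision.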

Additional observations from a re-analysis of the deposited data

How the results depend on the processing

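The settings were the offset, no background subtraction, median centring, the software's ratio, the authors' table, spike-in scaling, and the filter on dim probes. None of the 5 tested genes was called under any of them except spike-in scaling, which called 5 of 5 higher; without the dim filter 7 were tested and 0 called, and the fit over genes also called 0. All probes called, 4120 in the reported fit, were 117 (109 higher, 8 lower) with median centring, 2130 (1179 higher, 951 lower) with the software's ratio or the authors' table, and 18226 (18223 higher, 3 lower) with spike-in scaling. Called genes, 1692 as reported, were 26, 1016 and 6108 in the same order. CD79B turned to -0.03 with median centring, the software's ratio and the authors' table. With spike-in scaling the means below 0 turned to 2.05 (BCL6), 2.02 (IRF4), 1.96 (IKZF3), 1.35 (BTK), 1.42 (LYN), 1.72 (XBP1), 1.13 (KLF2), 1.75 (FOXO1), 1.42 (CTBP1), 1.69 (NCOR1) and 1.72 (BLNK), by its common shift. Left with 1 array, which allows no test and no count of calls, CD79B ranged from -0.11 to 0.13, IRF4 from -0.28 to 0.07, IRF8 from 0.11 to 0.25, BCL6 from -0.11 to -0.03 and IKZF3 from -0.22 to -0.12. In the fit over all probes BLNK had an adjusted p of 0.05, and XBP1 and FOXO1 were not called. Median centring left 6 of 17 named genes with the same call and direction, and none of them was called in the fit over all probes. The 10 called in that fit all lost their call with median centring: INPP5D, BTK, LYN, BLNK, PIGR, CD40LG, BCL11A, KLF2, CTBP1 and NCOR1. Median centring gave IRF8 0.84 and -0.55 on the arrays. The software's ratio left 11, with LYN, BCL11A, CTBP1, NCOR1 and BLNK no longer called. Offset 0 and no background subtraction each lost NCOR1 and BLNK. The cause was not tested. The reported test is already paired, since each ratio is taken within 1 array, and no replicate block could be added to it. IKZF3 is limited by dim signal, and EBF1 and PAX5 by the background.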
